A study of Homo sapiens with 5 samples.

Results

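The transcriptome of HEK293T cells in the control library, made from cells that had received the plasmid pUC19, is described here gene by gene. The members are the genes of that library: 18495 genes had at least 1 read in it, of 19716 genes with a read in any of the 5 libraries of the study. HEK293T is a human embryonic kidney line transformed with adenovirus DNA that also carries the SV40 large T antigen. The other 4 libraries came from cells given 5 sgRNAs against uPA (gene symbol PLAU, urokinase plasminogen activator) together with dCas9-BFP-DNMT1 (the catalytic domain of the maintenance methyltransferase), dCas9-BFP-DNMT3A or its fellow de novo enzyme dCas9-BFP-DNMT3B, or with the inactive partner in dCas9-BFP-EGFP, and they serve here only to show how far the profile held in other transfections of the same line. RNA was taken 48 h after transfection with 1 ug of plasmid. In the labels all 5 samples are BFP-positive cells collected by FACS, but pUC19 encodes no BFP, so how the control cells were collected is unclear. Each group had 1 library, so there was no spread between replicates to test against, and no difference between libraries was tested. The intervals given for TPM are exact 95% binomial intervals on the reads out of the library total and cover counting error only.

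The kidney forms from 2 embryonic tissues. The nephric duct gives off the ureteric bud, marked by PAX2, GATA3 and the receptor RET, and the surrounding metanephric mesenchyme holds the nephron progenitors, marked by SIX2, CITED1 and SALL1, which make podocytes and tubules. HEK293 cells were derived from a fetal kidney culture, and a renal, neuronal or adrenal origin of the line has been discussed. Genes for lineage factors, terminal products and surface receptors therefore describe what such a line still expresses and what it does not.

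A gene was called expressed at 1 TPM (a unit of relative transcript number, reads divided by transcript length and scaled to a fixed sum). The library held about 36140000 reads assigned to genes, the most of the 5, against about 26250000 to 29430000 in the fusion libraries. At this depth 3 reads corresponded to 0.083 reads per 1000000, and fewer than 3 reads is called not detected below. There were 13996 expressed genes, 71% of the genes with a read in any library. Of the 20052 protein-coding genes that RefSeq lists, 12734 (63.5%) were expressed, and 3142 had no row in any table analysed here. Whether those 3142 were in the reference that reads were aligned to is not known from the tables, so no row is not the same as a measured 0. Of the 16910 protein-coding genes with a row in any library 75.3% were expressed. A further 3310 genes had 3 reads or more but less than 1 TPM, 1222 had 1 or 2 reads, and 1221 had reads in a fusion library only. The median expressed gene had 19.8 TPM (interquartile range 6.15 to 52.3). Most expressed genes lay between 10 and 100 TPM (7414 genes), 1694 between 100 and 1000 TPM and 115 at 1000 TPM or more.

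**Figure D1:**
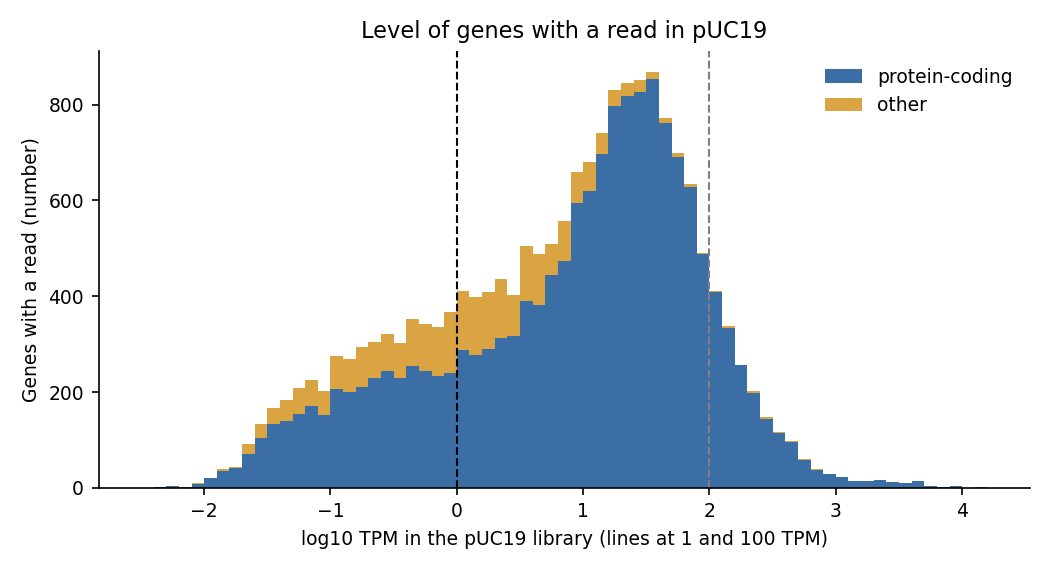
Number of genes with a read in pUC19 (vertical axis) by log10 TPM (horizontal axis, bins of 0.1), protein-coding genes in blue and other genes stacked in yellow, with lines at 1 and 100 TPM. Protein-coding genes make a broad peak between 10 and 100 TPM, and the other genes lie mostly below it.

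The most abundant transcripts encoded the protein synthesis machinery. RPS2, a protein of the small ribosomal subunit, was the highest with 12642 TPM (interval 12586 to 12699). RPS4X followed with 8869 TPM, GNB2L1 (RACK1, a scaffold protein of the ribosome) with 8609 TPM, RPS6 with 8143 TPM and RPL41 with 6585 TPM. RPS27 had 5814 TPM, the elongation factor EEF1A1 5522 TPM, RPL4 5446 TPM and the glycolytic enzyme GAPDH 5429 TPM. By symbol, 17 of the 20 highest and 60 of the 100 highest genes encode ribosomal proteins. Ranked by reads instead, without correction for length, EEF1A1 came first with 310619 reads, ahead of RPS2 with 193927, the elongation factor EEF2 with 171397 and GNB2L1 with 154433. The cytoskeletal gene ACTB was also among the 10 highest by reads, with 109147. The 10 highest genes took 7.21% of the TPM sum, the 100 highest 29.5% and the 1000 highest 60.5%. Counted as reads, the corresponding shares were 4.24%, 16.1% and 47.1%, so the concentration at the top is lower where short transcripts gain no weight. The 115 genes at 1000 TPM or more held 31.1% of the TPM sum, and 512 genes held 50% of it.

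Protein-coding genes took 98.4% of the reads. Of 1544 long non-coding RNAs with a read in any library, 674 were expressed, with a median of 3.52 TPM against 22.9 TPM for expressed protein-coding genes. BCYRN1, a short brain cytoplasmic RNA related to Alu repeats, led them with 1780 TPM over 200 bases. Because Alu copies are frequent in transcripts, its reads cannot be assigned to this gene with certainty. The next were mostly hosts of small nucleolar RNAs: LRRC75A-AS1 had 756 TPM, GAS5 624 TPM, SNHG5 479 TPM and SNHG16 308 TPM. DANCR, SNHG1, C6orf48, SNHG15 and SNHG6 ranged from 248.9 down to 209 TPM. Among 789 pseudogenes 390 were expressed. The highest, MTRNR2L2 (3750 TPM) and MTRNR2L8 (2399 TPM), are nuclear copies of mitochondrial 16S ribosomal RNA and can take reads of mitochondrial origin.

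Sequences before the transcription start are shown for 4 kidney genes, to set their letters beside any reads on them. They are the 200 bases upstream of the RefSeq start in GRCh38.p14, 5′ to 3′ on the strand of the gene, with every CG dinucleotide in capitals. SIX2 (chr2:45009453-45009652, minus strand) had 1686 reads, PAX2 (chr10:100735196-100735395, plus strand) 498 and PAX8 (chr2:113278922-113279121, minus strand) 1. UMOD (chr16:20352716-20352915, minus strand) had no row in any table, so whether reads could have been aligned to it is not known.
SIX2: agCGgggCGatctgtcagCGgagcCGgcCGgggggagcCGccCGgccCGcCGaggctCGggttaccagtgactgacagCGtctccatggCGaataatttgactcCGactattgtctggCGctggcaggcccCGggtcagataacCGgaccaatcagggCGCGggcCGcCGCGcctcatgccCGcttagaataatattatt
PAX2: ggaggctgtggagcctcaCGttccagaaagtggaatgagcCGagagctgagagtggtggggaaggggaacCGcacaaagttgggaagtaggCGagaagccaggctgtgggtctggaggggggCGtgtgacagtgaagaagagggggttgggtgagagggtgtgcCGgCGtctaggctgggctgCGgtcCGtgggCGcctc
PAX8: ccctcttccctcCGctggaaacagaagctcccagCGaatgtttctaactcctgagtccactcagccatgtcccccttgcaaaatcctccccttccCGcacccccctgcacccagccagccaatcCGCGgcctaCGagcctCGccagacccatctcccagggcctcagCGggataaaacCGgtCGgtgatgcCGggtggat
UMOD: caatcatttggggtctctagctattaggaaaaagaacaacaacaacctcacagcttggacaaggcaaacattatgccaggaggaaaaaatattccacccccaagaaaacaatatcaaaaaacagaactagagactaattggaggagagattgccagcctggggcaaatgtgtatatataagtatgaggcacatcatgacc
The SIX2 stretch holds 22 CG dinucleotides, that of PAX2 10, that of PAX8 11 and that of UMOD 0. PAX2 and PAX8, 1 expressed and the other not detected, are thus alike in this count. Over the 300 bases RefSeq gives per gene (250 before the start and 50 after it), a promoter was called CpG-rich at a GC content of at least 55% and a ratio of observed to expected CpG of 0.6 or more. Of the 4, SIX2 alone met this, with a ratio of 0.949 against 0.561 for PAX2, 0.483 for PAX8 and 0.142 for UMOD. A sequence was found for 82.3% of the expressed protein-coding genes, and 77.5% of those promoters were CpG-rich (95% Wilson interval 76.6 to 78.2). The motif TATAAA, searched on the strand of the gene and starting 45 to 20 bases before the start, was found in 1.56% of the expressed genes' promoters, CCAAT on either strand in 36.9% and GGGCGG on either strand in 71.4%. Over all protein-coding promoters with a sequence 59.8% were CpG-rich, and the motif shares in the same order were 3.69%, 36.4% and 58.5%. No comparison is drawn between these sets or between levels, since a sequence was found for 79.0% of all protein-coding genes, 78.6% of those between 1 and 10 TPM and 72.3% of those not detected, too few for such a check.

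Nephron progenitor genes were expressed in 8 of 10 cases, against 63.5% of all protein-coding genes. The list was chosen with earlier results of these data known, so this difference describes the list and tests nothing. Among its highest members were the transcriptional coactivator CITED1 with 51.8 TPM (interval 48.7 to 55.1) and the transcription factor SIX2 with 48.5 TPM (46.3 to 50.9). SALL1, a zinc finger factor needed for kidney outgrowth, had 28.2 TPM, WT1, mutated in Wilms tumour, 9.19 TPM and EYA1, a phosphatase that partners SIX2, 6.70 TPM. These 5 were read over most of their length, from 83.2% of the WT1 transcript to 98.0% of SALL1. The integrin ITGA8 had 3.25 TPM and GDNF, the ligand of RET, 2.11 TPM. OSR1 (0.656 TPM) and MEOX1 (0.565 TPM) were below 1 TPM. The RNA came from bulk cells, so a low level in every cell and a high level in few cells cannot be told apart. In GRCh37, the build of the files, SIX2 lies on chromosome 2 at 45232321 to 45236591 and CITED1 on the X chromosome at 71521488 to 71527037, both on the minus strand.

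These levels can be set beside the other transfections. SIX2 had 40.7 TPM in the DNMT1 fusion library, 47.4 in that of DNMT3A, 52.5 in that of DNMT3B and 35.1 in that of EGFP, on both sides of its pUC19 level. CITED1 had 30.4, 19.6, 22.003 and 23.006 TPM in the same order, below pUC19 in all 4 and by less than 2-fold in that of DNMT1. SALL1 ranged from 21.9 to 35.6 TPM and WT1 from 5.66 to 12.1 TPM in the fusion libraries, again on both sides of pUC19.

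The nephric duct and ureteric bud list had 7 of 10 expressed members at lower levels. This count and that of the renal stroma list below stand beside 63.5% of all protein-coding genes. GATA3 had 14.03 TPM, WNT11 10.4 TPM, PAX2 7.55 TPM and EMX2 7.20 TPM. GFRA1 (5.28 TPM) and RET (3.54 TPM), the co-receptor and receptor for GDNF, were read over 90.4% and 84.1% of their transcripts, and LHX1 had 5.25 TPM. PAX8, a paralog of PAX2 that is expressed in the same embryonic cells, had 1 read. WNT9B, a signal of the duct, had 2 reads. The renal stroma list had 5 of 8 members expressed, among which FOXD1 had 29.2 TPM, the retinoic acid synthesis enzyme ALDH1A2 27.3 TPM, MEIS1 14.4 TPM and TBX18 7.503 TPM. PDGFRB and TCF21 had 15 and 3 reads. PAX2 stayed between 6.08 and 7.72 TPM in the fusion libraries, and FOXD1 between 17.7 and 27.6 TPM.

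Products of differentiated nephron segments were mostly below 1 TPM. Of 12 proximal tubule genes 2 were expressed, LRP2 (megalin, an endocytic receptor) with 5.03 TPM and GGT1 (gamma-glutamyltransferase) with 2.14 TPM. The water channel AQP1 (0.648 TPM) was just under the threshold. The factor HNF4A had 3 reads, the phosphate transporter SLC34A1 4, the glucose transporter SLC5A2 5 and the organic anion transporter SLC22A6 none. SLC22A8, another organic anion transporter, had no row in any table. Of 14 distal nephron and collecting duct genes 4 reached 1 TPM. These were the related channel AQP3 (6.56 TPM), the proton pump subunit ATP6V1B1 (4.42 TPM), the calcium-binding protein PVALB (2.89 TPM) and CLDN16 (1.62 TPM). Reads on CLDN16 covered only 8.72% of its transcript. UMOD, the uromodulin gene of the thick ascending limb, and the intercalated cell factor FOXI1 had no row in any table analysed here, and AQP2, the vasopressin-regulated water channel, had 1 read. The podocyte list had 5 of 10 members expressed. The surface sialomucin PODXL (21.0 TPM) was its highest member, and SYNPO (3.29 TPM), FOXC2 (1.97 TPM) and CLIC5 (1.03 TPM, 48.3% covered) were also expressed. The slit diaphragm gene NPHS1 had 0.736 TPM over 7.8% of its transcript.

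Neuronal genes were among the highest of any marker list. Of its 20 members 13 were expressed, a share near the 63.5% of all protein-coding genes. UCHL1, a deubiquitinating enzyme abundant in neurons, had 294 TPM (interval 286 to 302). The neurofilament subunits NEFM and NEFL had 193 TPM (189 to 197) and 90.7 TPM (88.3 to 93.1), and the related filament INA 39.04 TPM. ENO2, the neuronal enolase, had 29.4 TPM, the adhesion molecule NCAM1 22.2 TPM, the synaptic vesicle protein SYP 21.2 TPM and the tubulin TUBB3 19.8 TPM. NEFH, the heavy neurofilament subunit, had 0.455 TPM, and the RNA-binding proteins ELAVL3 and ELAVL4 had no read in pUC19. DCX and MAP2, which bind microtubules in neurons, had 17 and 31 reads and were under 1 TPM. The list therefore held both abundant and undetected members.

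The neurofilament levels differed between the libraries. NEFM had 48.1 TPM in the DNMT1 fusion library, 60.2 in that of DNMT3A, 60.1 in that of DNMT3B and 34.3 in that of EGFP, and NEFL 35.6, 30.04, 29.7 and 28.9 TPM. The pUC19 library was thus at least 2-fold above all 4 for both genes. INA went the other way, with 55.4, 73.2, 85.4 and 73.8 TPM, and ENO2 likewise with 48.7, 54.8, 58.8 and 43.3 TPM. UCHL1 lay between 314 and 386 TPM in the fusion libraries. The list had expressed members in every library, and the order of NEFL and INA in pUC19 was the reverse of that in the fusion libraries.

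Sympathoadrenal genes were expressed in 8 of 16 cases, against 63.5% of all protein-coding genes. The factors GATA2 (38.0 TPM), GATA3 (14.03 TPM) and ISL1 (14.02 TPM) led, with the vesicular monoamine transporter SLC18A2 at 10.4 TPM, the zinc finger factor INSM1 at 5.28 TPM and HAND2 at 3.13 TPM. The granule proteins CHGA and CHGB had 2.44 and 1.18 TPM. TH, which catalyses the rate-limiting step of catecholamine synthesis, and the sympathetic lineage factor PHOX2A had no row in any table analysed here, DBH, which makes noradrenaline, had no read in pUC19, and PNMT, which makes adrenaline, had 7 reads. Of 9 adrenal cortex genes, STAR alone reached 1 TPM (1.40 TPM, 33.5% covered), and the cortex factor NR5A1 had 10 reads. GATA2 had 44.3, 62.0, 68.6 and 35.3 TPM in the libraries of the DNMT1, DNMT3A, DNMT3B and EGFP fusions, so that it was expressed in each.

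Neural crest genes were expressed in 10 of 12 cases, with SNAI2 (42.6 TPM), TFAP2A (41.2 TPM), MSX1 (23.7 TPM), PAX3 (12.4 TPM), TWIST1 (12.0 TPM) and FOXD3 (6.34 TPM) highest. SOX10, which marks migrating crest and glia, had 2 reads, and TFAP2B had no row in any table. Of 12 neural progenitor genes 8 were expressed. Over all protein-coding genes the share was 63.5%, near that of the neural progenitor list and below that of the neural crest list. The RNA-binding protein MSI1 had 39.7 TPM, PAX6 16.3 TPM and SOX2 6.77 TPM, while SOX1 had 1 read. In the glia list 3 of 10 members were expressed: the glutamate transporter SLC1A3 (31.3 TPM), OLIG2 (10.3 TPM) and the myelin gene MBP (1.63 TPM, 31.9% covered).

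Of 17 mesenchyme genes 11 (64.7%) were expressed, close to the 63.5% of all protein-coding genes, and of 13 epithelium genes 5 (38.5%). The mesenchyme list was led by the intermediate filament VIM with 437 TPM (430 to 444), N-cadherin (CDH2) with 68.3 TPM, SNAI2 with 42.6 TPM, fibronectin (FN1) with 26.3 TPM, ZEB1 with 17.8 TPM and TWIST1 with 12.0 TPM. The matrix proteoglycan genes LUM and DCN had 3 and 2 reads, and COL1A2 had no row in any table although COL1A1 had 7.97 TPM. The 5 epithelium genes were the simple keratins KRT18 (94.0 TPM) and KRT8 (36.1 TPM), the desmosome protein DSP (56.8 TPM), E-cadherin (CDH1, 8.54 TPM) and EPCAM (1.45 TPM). The epithelial regulators ESRP1 and GRHL2 had 1 read each and KRT19 none. In pUC19 the CDH2 level was 68.3 TPM against 8.54 TPM for CDH1, and in the fusion libraries CDH2 had 55.4 to 71.6 TPM and CDH1 4.43 to 5.89 TPM.

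Keratins and claudins, the structural proteins of epithelia, were mostly under 1 TPM. Of 55 keratin genes 4 reached 1 TPM, the other two being KRT10 (7.66 TPM over 24.8% of its transcript) and KRT222 (2.96 TPM), and 37 had no read, 27 of them without a row in any table. Of 24 claudins, the tight junction proteins, 3 were at 1 TPM or more: CLDN12 (24.4 TPM), CLDN15 (12.0 TPM) and the thinly covered CLDN16. At 0.5 TPM the claudin count was 8. Among 22 cadherins 7 were expressed, with CDH24 (7.37 TPM) after CDH2 and CDH1. Collagens were expressed in 19 of 44 cases, led by COL6A1 (85.1 TPM), COL4A2 (38.2 TPM), COL18A1 (28.4 TPM), COL6A2 (26.0 TPM), the cartilage collagen COL2A1 (22.4 TPM) and COL4A1 (17.5 TPM). Laminins, of the basement membrane, were expressed in 9 of 12 cases, with LAMC1 at 73.1 TPM, LAMB1 at 50.1 TPM and LAMB2 at 20.03 TPM. Of 26 integrins 15 were expressed, and the beta subunit ITGB1 had the highest level (82.4 TPM), before ITGA5 (24.4 TPM) and ITGB5 (22.9 TPM). Of 15 other intermediate filament genes 11 were expressed, the lamins LMNB1, LMNB2 and LMNA at 152, 145 and 37.5 TPM among them.

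HOX genes, which set position along the body axis, were detected almost throughout: 37 of 39 were at 1 TPM or more. HOXB9 had 154 TPM (interval 150 to 158) and HOXD13 112 TPM (109 to 116). HOXC10 (49.7 TPM), HOXB6 (38.8 TPM), HOXD11 (38.5 TPM) and HOXD10 (37.6 TPM) followed. The median was 7.34 TPM over the 12 genes of paralog groups 1 to 4, 15.98 TPM over the 11 of groups 5 to 8 and 21.1 TPM over the 16 of groups 9 to 13, which pattern the posterior trunk. In each of the 4 fusion libraries the medians ran in the same order, for example 8.93, 18.6 and 23.1 TPM with the EGFP fusion. Every gene of the HOXA and HOXC clusters was expressed, 9 of 10 in HOXB and 8 of 9 in HOXD. HOXA7 (6.74 TPM, 32.0% covered), HOXA9 (4.14 TPM, 38.5%) and HOXC12 (1.55 TPM, 41.6%) were less than 50% covered. With 50% coverage required as well, 34 of the 39 genes remained. HOXA7 was under the 5% quantile of 61.4% among genes with like reads per kb, so its TPM value describes part of a transcript. HOXB1 had no row in any table, and HOXD12 had 3 reads. In GRCh37 the gene HOXD13 is at chromosome 2, 176957449 to 176960672 (plus strand), and HOXB9 at chromosome 17, 46698518 to 46703720 (minus strand).

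**Figure D2:**
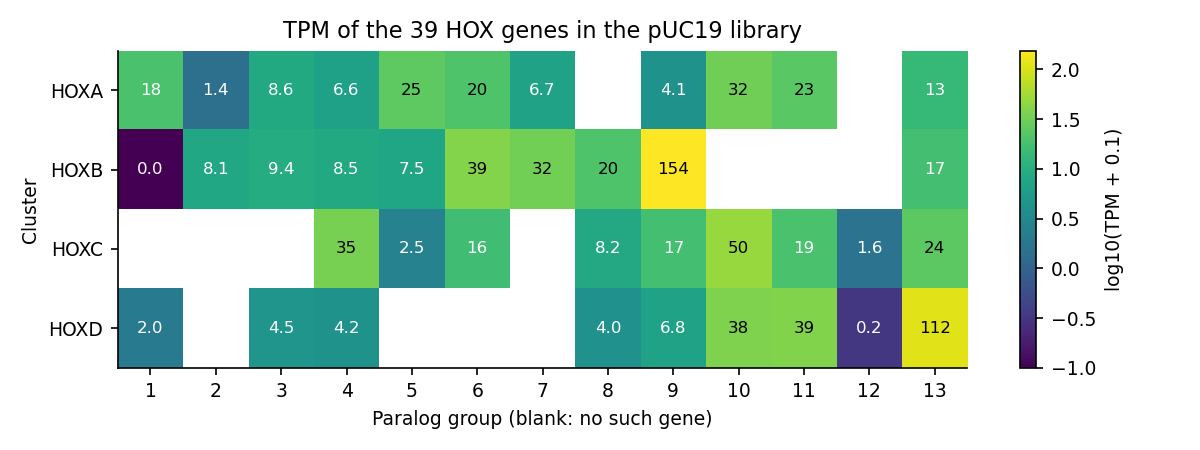
TPM of the 39 HOX genes in pUC19, by cluster (rows) and paralog group (columns), with the value printed in each cell and the colour giving log10(TPM + 0.1); blank cells have no gene. HOXB9 (154 TPM) and HOXD13 (112 TPM) stand above the rest, and HOXB1 and HOXD12 are the only cells under 1 TPM.

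Developmental transcription factors had a larger expressed share than the marker genes, near that of all protein-coding genes. Over the 18 families examined, HOX included, 165 of 238 genes (69.3%) were at 1 TPM or more, with a median of 5.22 TPM. Over the 299 genes of the cell type lists 129 (43.1%) were, with a median of 0.458 TPM. The median over all RefSeq protein-coding genes was 6.34 TPM. After HOXB9, the highest factors were FOXM1, which drives mitotic genes, with 136 TPM, HOXD13, PBX2 with 96.8 TPM, FOXC1 with 70.9 TPM, SOX4 with 66.5 TPM, FOXK2 with 64.6 TPM and ZIC2 with 62.6 TPM. HOXC10 and SIX2 came next among those named, before SOX12 (47.5 TPM), EYA3 (46.6 TPM), TBX1 (44.1 TPM), POU4F1 (43.8 TPM), SALL2 (43.3 TPM), ISL2 (43.1 TPM), SNAI2, TFAP2A and HOXB6. Several of these genes have known roles in neural, cardiac, limb or kidney development, while others, such as FOXM1, are counted through their family symbol.

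Within families the expressed and undetected members were specific genes. All 4 EYA genes, all 7 MEIS and PBX genes and all 9 genes of the HAND, TWIST, SNAI and ZEB group were expressed. SIX2, SIX3, SIX4 and SIX5 were expressed as well, and SIX6, an eye factor, had no row. Of 9 PAX genes 5 were expressed, in the order PAX6 (16.3 TPM), PAX3 (12.4 TPM), PAX2 (7.55 TPM), PAX9 (5.34 TPM) and PAX7 (1.36 TPM). GATA2 to GATA6 were all expressed, among them GATA4 with 29.7 TPM, and the erythroid factor GATA1 had no read in pUC19. The SOX family had 11 of 19 members expressed. SOX11 had no read in pUC19, and SOX17 had no row in any table. The FOX list had 31 of 52 members expressed, counting FOXL2NB, which its symbol pattern takes in although it is only a neighbour of FOXL2. T-box genes were expressed in 9 of 16 cases, LHX, LMX and ISL genes in 9 of 12, NKX genes in 11 of 14 with NKX2-5 at 25.5 TPM, POU genes in 7 of 15, ZIC genes in 4 of 5, SALL genes in 3 of 4 and TFAP2 genes in 2 of 5. IRX3, IRX5 and IRX6 of the 6 IRX genes were expressed, while IRX1 and IRX2 had no row. Of the HNF, CDX and ONECUT genes 3 of 10 were expressed, and the intestinal factor CDX2 (37.9 TPM, 92.0% covered) was the highest.

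Markers of pluripotent cells were at 1 TPM or more in 9 of 15 cases, beside 63.5% of all protein-coding genes. Reads lay along most of the transcript in few of these markers. LIN28B, which blocks let-7 maturation, had 51.0 TPM (interval 49.5 to 52.5) over 98.9% of its transcript. The telomerase subunit TERT (7.41 TPM, 79.7% covered), POU5F1 (7.16 TPM, 59.1%) and SOX2 (6.77 TPM, 78.7%) were the only others over 50% covered. POU5F1 has near-identical pseudogene copies, so its value is uncertain. L1TD1 had 3.08 TPM with 197 reads on 8.74% of the transcript, where genes with like reads per kb had a median coverage of 75.7%. ZFP42 (3.01 TPM) was 24.9% covered. Counting only transcripts at least 50% covered lowered the list from 9 to 4.

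Further tissue lists had between 1 and 5 expressed members. Hepatocyte genes had 1 of 10 (FGB, 1.09 TPM on 8.05% of the transcript), and ALB had 13 reads. Endothelium had 1 of 11 (SOX18, 3.29 TPM, 46.9% covered), with TIE1 without a read in pUC19 and CDH5 without a row in any table. Germ cell genes had 2 of 11 (ZP3, 7.51 TPM, and ACR, 1.13 TPM). The pancreas list had 2 of 9 (NKX6-1, 10.0 TPM, and PDX1, 6.07 TPM), with INS without a row in any table. The keratinocyte list had 2 of 9, both thinly covered. Photoreceptor genes had 2 of 7, the factor CRX (4.41 TPM) on 22.7% of its transcript and PDE6B (1.30 TPM) on 22.1%. Blood genes had 4 of 14, RUNX1 (1.72 TPM) among them, while the pan-leukocyte gene PTPRC had 19 reads and was under 1 TPM. Striated muscle had 5 of 13, with NKX2-5 at 25.5 TPM and the cardiac troponin TNNI3 at 24.3 TPM (85% covered). ACTC1 had no read in pUC19, and TNNT2 had no row in any table. The intestine list had CDX2 and LGR5 (3.73 TPM) of 7, the lung list FOXA1 (7.55 TPM), NKX2-1 (3.31 TPM) and SFTPB (1.77 TPM) of 7, and the melanocyte list MITF (8.13 TPM), MLANA (2.72 TPM) and PMEL (2.43 TPM) of 7. In the adipocyte list PPARG (33.6 TPM), CEBPA (15.8 TPM) and PLIN1 (1.28 TPM) of 6 were expressed and FABP4 had no row. Smooth muscle had 2 of 4 (ACTA2, 4.71 TPM; TAGLN, 2.59 TPM) and thyroid 2 of 5 (FOXE1, 5.42 TPM; SLC5A5, 3.32 TPM).

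Signalling and transport families describe the receptors and carriers of the control cells. Their counts can be set beside the 63.5% of all protein-coding genes that were expressed. Of 126 G protein-coupled receptors 40 (31.7%) were expressed and 41 had fewer than 3 reads. The thrombin receptor F2R (35.1 TPM), the lysophosphatidic acid receptor LPAR3 (29.1 TPM), the adenosine receptor ADORA2B (21.96 TPM), F2RL1 (19.9 TPM), the adrenoceptor ADRA2C (19.6 TPM) and the chemokine receptor CXCR4 (19.4 TPM) were highest. Receptor tyrosine kinases were expressed in 40 of 58 cases, with PTK7 (60.8 TPM), RYK (60.1 TPM), EPHB4 (46.0 TPM), FGFR3 (37.0 TPM), FGFR1 (36.1 TPM) and TYRO3 (33.8 TPM) at the top. Of the 125 genes of the ion channel list 60 were expressed. They included the proton-gated channel ASIC1 (48.9 TPM), the store-operated calcium entry pair STIM1 (40.5 TPM) and ORAI1 (33.4 TPM), and the mechanosensitive PIEZO1 (30.8 TPM). The nicotinic subunit CHRNA5 (30.3 TPM) and ANO6 (26.9 TPM) followed. STIM1 and STIM2 are calcium sensors that the list holds beside the channels themselves. Nuclear receptors were expressed in 34 of 48 cases, NR2F6 (57.3 TPM), NR2F2 (43.6 TPM), RXRB (36.4 TPM), ESRRA (34.1 TPM), PPARG (33.6 TPM) and NR1D2 (28.3 TPM) highest. Of 34 drug and organic ion transporters 18 were expressed, ABCC1 (33.9 TPM), ABCC4 (30.04 TPM) and SLC47A1 (25.4 TPM) first. Of 22 drug-metabolizing cytochromes P450 11 reached 1 TPM, from CYP2R1 (15.0 TPM), a vitamin D 25-hydroxylase, to CYP2B6 (1.05 TPM, 13.4% covered), and CYP3A4, the main hepatic enzyme, had 10 reads. Toll-like receptors had 3 of 10 at 1 TPM, TLR10 (3.02 TPM), TLR6 (1.36 TPM) and TLR7 (1.07 TPM). These 3 transcripts were 8.02%, 38.0% and 8.27% covered, so none reached 50%.

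Families of tissue-restricted genes, chosen after the values had been seen, had few genes with reads. Of 392 olfactory receptor genes 366 had no read in pUC19, 342 of which had no row in any table, and 3 reached 1 TPM: OR1F1 (4.81 TPM, 93.1% covered), OR7D2 (2.33 TPM) and OR11A1 (1.998 TPM). The 94 keratin-associated proteins had 91 without a read (87 with no row in any table), the 39 beta-defensins 36 (35) and the 23 PRAME family genes 22 (20). None of the 19 late cornified envelope genes had a row in any table analysed here, so no level or upper limit can be given for them. Of 17 type I interferons 15 had no read, 12 of them without a row in any table, and none reached 1 TPM, and 2 of 25 bitter taste receptors did, TAS2R20 (1.87 TPM) and TAS2R5 (1.36 TPM). By chromosome, the expressed share of protein-coding genes with a GRCh37 position ran from 52.9% on the X chromosome, 53.7% on chromosome 21 and 55.9% on chromosome 11 to 72.8% on chromosome 22.

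The percentage of a transcript with a read, which the tables give for each gene, was a second measure of whether a level stood for a whole transcript. Among expressed genes its median was 90.1%, and 93.1% of them were at least 50% covered. It depended on depth: with 3 to 10 reads per kb the median was 22.5%, with 10 to 30 reads per kb 47.8%, with 30 to 100 reads per kb 75.7% and with 100 to 300 reads per kb 89.1%. Coverage under 50% was therefore common near 1 TPM. Of the expressed genes 962 (6.87%) were less than 50% covered, and 60 of them were list members. Where coverage was under 10% at 1 TPM or more, in 8 list members, the reads lay on a small part of the transcript. TLR10 had 192 reads on 8.02% and L1TD1 197 reads on 8.74%, against a 5% quantile of 23.05% among genes with like reads per kb. KRT10 (264 reads, 24.8%) and ITGAE (495 reads, 25.4%, named after its values were seen) were likewise under the 5% quantile of 61.4% in their range. For these genes the TPM value describes part of a transcript.

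**Figure D3:**
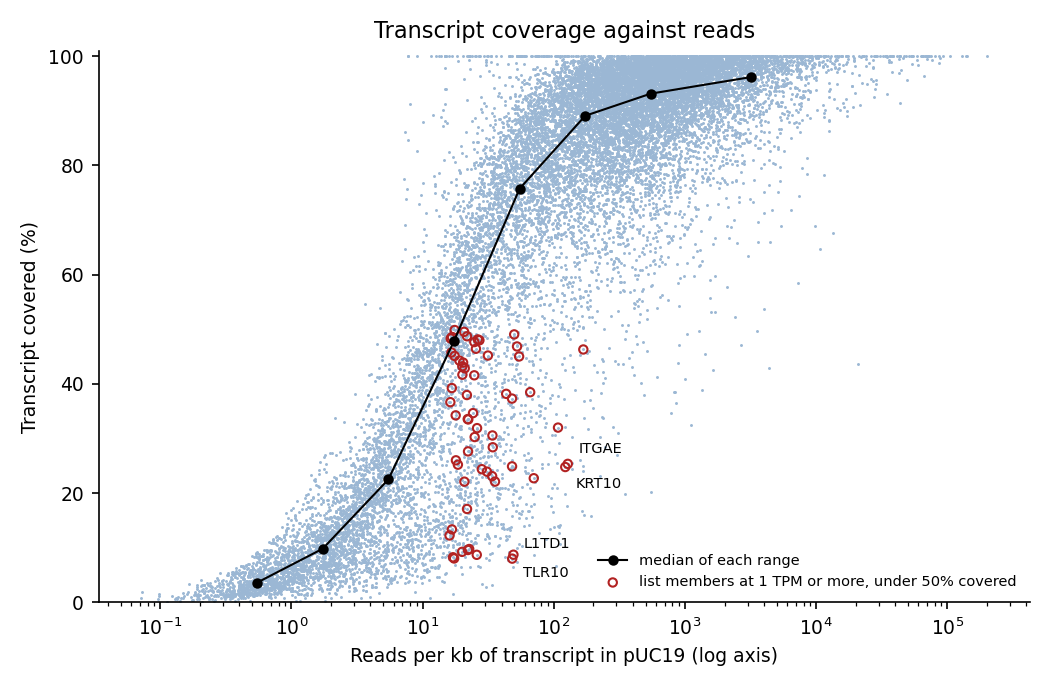
Percentage of each transcript covered (vertical axis) against reads per kb in pUC19 (log horizontal axis); dots are genes, the black line joins the medians of successive ranges of reads per kb, and red rings are list members at 1 TPM or more with less than 50% covered. TLR10, L1TD1, KRT10 and ITGAE lie far under the line, while rings between 10 and 30 reads per kb spread from the line down to under 10%.

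At 100 TPM or more the median coverage was 96.8%, and 5 of 1809 genes were under 50%. Among the lowest were MTRNR2L3 (43.0%, 274 TPM), RPL10 (43.6%, 1299 TPM), the proteasome assembly factor POMP (47.1%, 167 TPM) and the mitochondrial chaperonin HSPE1 (49.6%, 221 TPM). MTRNR2L6, COX6C, HSPA1B, NDUFA4 and NME1 followed with 52.2% to 58.5%. HSPA1B shares nearly its whole coding sequence with HSPA1A. Whether the counting of unique reads lowered its coverage was not tested.

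The profile was largely the same in the other libraries. Of the 13996 expressed genes 13080 (93.5%) were at 1 TPM or more in all 4 fusion libraries and 203 in none of them. A difference of at least 2-fold from pUC19, on the scale of TPM + 0.1, was found for 7.37% of the expressed genes with the DNMT1 fusion, 12.5% with DNMT3A, 11.9% with DNMT3B and 7.67% with EGFP. These 4 comparisons share the pUC19 library. Within 2-fold of pUC19 in all 4 were 11228 genes (80.2%). Of 2443 genes that were not detected in pUC19, 1542 were not detected in any library, and 3 were at 1 TPM or more in all 4 fusion libraries. Of the 2443, 1221 had no read in pUC19 and are counted only because a fusion library had a read. Genes without a row in any table are left out. The count therefore does not measure how many silent genes stayed silent. No gene of fewer than 3 reads in pUC19 reached 5 TPM in each fusion library. In the reverse direction there were 4 genes, the small nucleolar RNAs SNORD14B, SNORD38B, SNORD48 and SNORD80. They had 6 to 8 reads in pUC19, which for transcripts of 63 to 91 bases makes over 5 TPM.

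A few members set the control apart. At least 2-fold from pUC19 in the same direction in all 4 fusion libraries were 346 expressed genes (2.47%), 284 lower and 62 higher than in pUC19. Genes entered this count by their pUC19 level alone, and all 4 comparisons share that library. The split into lower and higher members is therefore shaped by the filter and is not read as a result. Among the 515 expressed list members there were 15 (2.91%), 13 lower and 2 higher, a share near that of all genes. The 13 included NEFM, NEFL and SNAP25, and the ephrin receptors EPHA6, EPHA7 and EPHB1. HAND1, a factor of heart and trophoblast, had 37.5 TPM in pUC19 against 15.1, 12.9, 10.4 and 7.9997 TPM in the libraries of the DNMT1, DNMT3A, DNMT3B and EGFP fusions. CXCR4 had 19.4 TPM against 8.62, 6.45, 6.64 and 6.02 TPM, and CYP1A1, an enzyme induced through the aryl hydrocarbon receptor, 5.05 TPM against 0.960, 1.05, 0.953 and 1.32 TPM. The 2 higher members were POU6F1, with 6.13 TPM in pUC19 and 12.6 to 17.9 TPM in the fusion libraries, and the nicotinic subunit CHRNA4, with 1.35 TPM and 2.85 to 4.93 TPM.

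Outside the lists, the insulin receptor substrate gene IRS4, on chromosome X at 107963176 to 107979793 in GRCh37, had 396 TPM in pUC19 (interval 391 to 401), rank 342. In the fusion libraries it had 76.5, 70.5, 66.3 and 68.2 TPM, each below the pUC19 level. The interval covers counting error only, and the difference was not tested. PLAU, the gene targeted in the study, had 106 reads and 2.48 TPM in pUC19, rank 12367 of the genes with a read. Plasmid, sgRNAs, any difference in cell collection and the separate transfection of each group cannot be told apart in these differences. Each fusion library differs from the control in all of them. The control cells were transfected too, with pUC19.

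**Figure D4:**
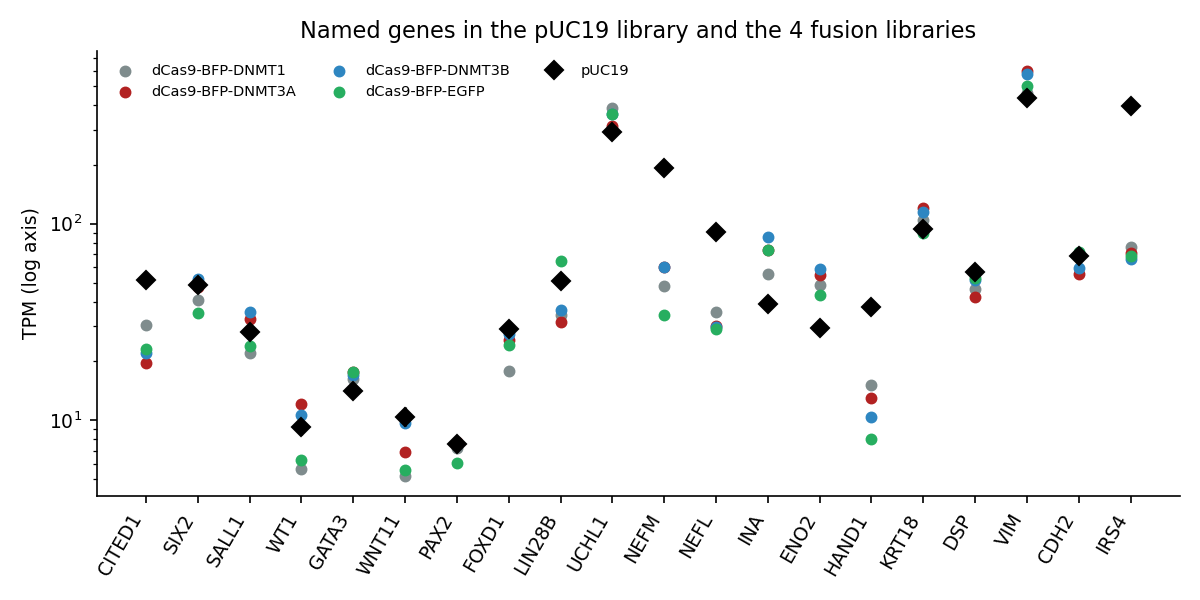
TPM on a log axis of genes named in the text in pUC19 (black diamonds, with exact 95% binomial intervals mostly smaller than the symbol) and in the 4 fusion libraries (coloured points). SIX2, PAX2, UCHL1 and CDH2 lie close in all 5 libraries, while NEFM, NEFL, HAND1 and IRS4 are higher in pUC19 than in every fusion library.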

How the data were processed

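HEK293T cells were transfected with X-tremeGENE 9. RNA was selected with oligo(dT) and fragmented, and cDNA near 240 bp went through 12 cycles of PCR before Ion Proton sequencing. Reads under 30 nt were removed by the authors, who mapped the rest with tmap to RefSeq RNA of hg19 (GRCh37) with at most 3 mismatches, and kept unique reads. The version of tmap is not given in the sources used here. The deposited read counts are whole numbers without normalization. Deposited TPM values are those counts over transcript length, scaled per library by the authors, and recomputing them gave the same values to rounding. The deposited coverage is a percent, read here as the part of the transcript with a read. Genes without reads have no row in a library's table and were set to 0. For genes with no row in any table, 133 list members among them, it is not known whether reads could have been aligned to them.

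Groups were taken from the titles. Genes at 1 TPM or more were called expressed. Marker lists, families by symbol, and the genes named (up to 6 highest members per list and those without reads that define it, the 20 highest genes and factors, the 10 highest long non-coding RNAs, the 10 of most reads and the 10 of lowest coverage at 100 TPM or more) were fixed by rule; members and lists were chosen with earlier results of these data known, and the genes named for part coverage or for a change in all 4 fusion libraries were chosen after their values were seen. Gene types came from RefSeq by gene ID (99.4% of pUC19 rows matched), positions from GENCODE v44 on GRCh37, and promoters from RefSeq on GRCh38.p14. Fold changes are ratios of TPM + 0.1. With 1 library per group no p-value was computed. A few genes are not reported here. Unique counting lowers genes with near-identical copies. The scripts were tested on simulated counts. Alternatives were minimum levels of 0.5 and 5 TPM, 10 reads, 1 read per 1000000, 50% coverage, thinning to the smallest library, a pseudocount of 1 TPM and TMM scaling (edgeR 4.0.16, R 4.3.3); numpy 2.4.6, pandas 2.3.3 and scipy 1.17.1 were used.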

Additional observations from a re-analysis of the deposited data

How the results depend on the processing

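Raising the minimum from 1 to 5 TPM lowered the expressed list members from 515 to 307 and the share of most lists: podocyte genes to 2, proximal tubule and distal nephron genes to 1 each, sympathoadrenal genes to 5 and pluripotent cell genes to 4. At 0.5 TPM, or at 1 read per 1000000 without a length correction, the proximal tubule list had 4 expressed members. Asking for 50% coverage as well left 4 pluripotent cell genes. The counts of the nephron progenitor, nephric duct, renal stroma, neuron, neural crest, epithelium and mesenchyme lists, and that of all expressed genes, stayed within 1.5 times under the 6 settings tried. Counted as reads instead of TPM, the 100 most abundant genes held 16.1%. The share of expressed genes within 2-fold of pUC19 in all 4 fusion libraries was 86.6% with a pseudocount of 1 TPM, 84.9% for genes of at least 5 TPM and 80.6% with TMM scaling. The DNMT1 fusion library had a median log2 ratio of -0.16 to pUC19, and TMM scaling reduced the largest such shift to 0.04. At 5 TPM 81.1% of promoters were CpG-rich. With 10 to 30 reads per kb, the median coverage of transcripts of 1000 to 3000 bases was 46.1%. For the other 49 lists 254 of 294 counts stayed within 1.5 times, and 26 of the 40 that did not were at 5 TPM. No paired analysis was possible because each group had 1 library, which also means that no replicate could be left out. At this depth a gene with fewer than 3 reads cannot be told from one that is absent.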
